A study of Mus musculus with 10 samples.

Results

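The adipogenic transcription factors are the regulators that commit a fibroblast-like precursor to the fat lineage and then switch on the fat-cell programme. The 10 genes described here are Pparg, Cebpa, Cebpb, Cebpd, Klf4, Klf5, Klf15, Ebf1, Ebf2 and Zfp423, out of 32903 genes with transcripts in the data. They were chosen by name from the known pathway, but with earlier results of these data known. All 10 passed the filter on low counts, which kept 14597 genes for testing. RNA was sequenced from preadipocytes, the precursors of fat cells, that came from the inguinal subcutaneous fat (iSAT) of male WT C57 BL6 mice. The vehicle DMSO alone was given to the cells of 5 libraries, and the cells of another 5 received bisphenol S (BPS), an industrial chemical used in place of bisphenol A, at 2.5 µM in DMSO. The comparison asks whether BPS changed the RNA of these regulators in precursors. The exposure time, the ages of the mice, the cells' passage and any differentiation medium were not given in the sources used here. Whether replicates were separate animals, cultures or dishes was not given either, so the p-values measure only the spread between these libraries, which may be technical.

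In the textbook cascade, C/EBPβ and C/EBPδ rise within hours of an adipogenic stimulus, with KLF4 acting upstream of Cebpb and KLF5 downstream of it. They lead to PPARγ, the nuclear receptor without which fat cells do not form, and to C/EBPα, which keeps PPARγ on and gives insulin sensitivity, with KLF15 acting alongside them. ZFP423, EBF1 and EBF2 act earlier, in the committed precursor, where they help to switch on or accompany PPARγ, and EBF2 also marks precursors of brown and beige fat.

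Total estimated counts ranged from 37920689 to 42717227 per library. Levels are given as CPM, that is, counts scaled to a common library size, adjusted by TMM factors of 0.9854 to 1.008. Fold changes, standard errors (SE), 95% intervals and Benjamini-Hochberg adjusted p-values come from edgeR's quasi-likelihood test over all 14597 genes, and a gene is said to have risen or fallen only where its adjusted p was under 0.05. The labelled cell type was checked against marker genes. The 12 preadipocyte markers summed to 24925 to 26628 CPM in the DMSO libraries and to 24166 to 27057 CPM in the BPS libraries, but Col1a1 alone gave 21821 ± 652 and 21909 ± 1060 CPM of this. Pdgfra, the receptor that marks these precursors, was at 904 ± 14.3 and 863 ± 22.8 CPM (adjusted p = 0.0777), and Dcn at 567 ± 20 and 571 ± 13.5 CPM. The lowest of the 12 were Dpp4, at 2.45 ± 0.288 and 2.13 ± 0.214 CPM, and Pi16, at 2.02 ± 0.237 and 2.21 ± 0.231 CPM. Of 7 mature adipocyte markers, 5 (Adipoq, Cidec, Lep, Retn and Cfd) had at most 3 counts in every library, and the 7 together summed to at most 0.921 CPM. Of the preadipocyte markers, Cd34 and Thy1 rose, by 21.3 and 14.1%. Markers of mural cells, which wrap small vessels, summed to 1074 to 1149 CPM in DMSO and to 1379 to 1487 CPM in BPS, and 3 of 6 rose: Acta2, the smooth muscle actin that also marks activated fibroblasts, Mcam and Cspg4. Acta2, at 1037 ± 29.3 and 1339 ± 41 CPM, made up most of that sum, and Rgs5, Myh11 and Notch3 did not pass. Of all genes tested, 4.88% passed. Of 6 mesothelial markers only 2 were tested, and they differed in direction: Krt19 rose from 9.34 ± 0.753 to 11.2 ± 0.689 CPM, and Wt1 was at 0.849 ± 0.12 and 0.569 ± 0.188 CPM (adjusted p = 0.155). Msln, Upk3b and Upk1b had at most 3 counts in every library. In bulk RNA, more cells of a type and more RNA per cell cannot be told apart.

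Of the 10 factors, 1 rose under BPS, Klf4, and 0 fell, while 9 did not pass the test. Over all genes tested, 4.88% passed in either direction, 3.06% upward and 1.82% downward. The members' log2 fold changes were positive for 6 and negative for 4, with a median of 0.02, against 0.0004 over all genes tested. The groups did not overlap for Klf4 alone, and over all genes tested the groups did not overlap for 6.9%. The share of members that passed, 10%, was thus a single gene.

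**Figure D1:**
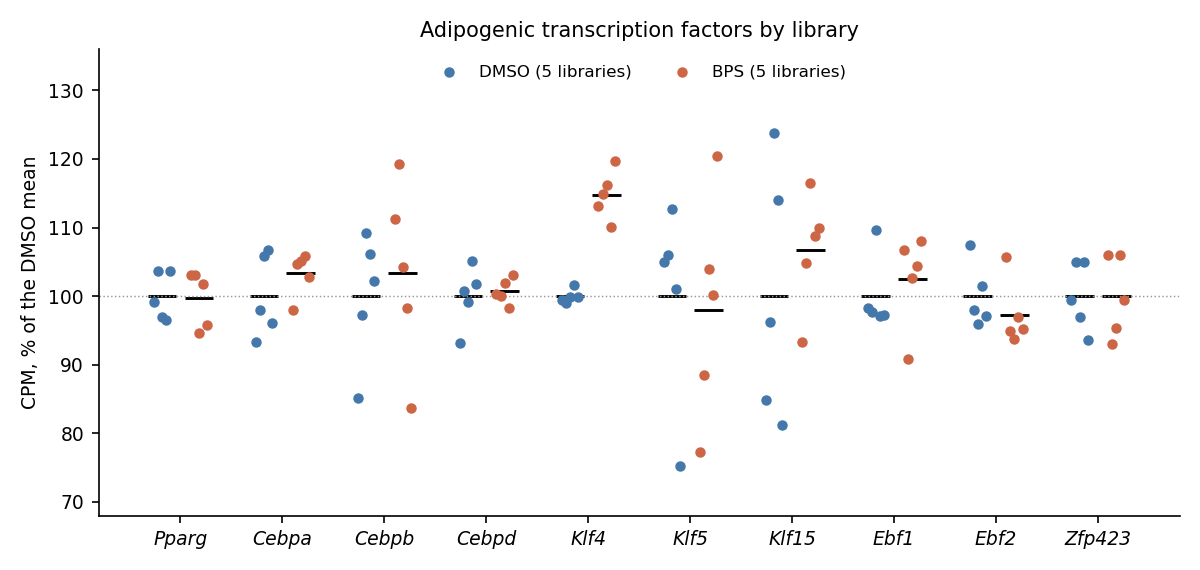
Level of each of the 10 factors in each library, in CPM as a percentage of that gene's mean over the 5 DMSO libraries (y axis), with DMSO in blue, BPS in orange and group means as black bars. The 5 BPS libraries lie above the 5 DMSO libraries for Klf4, and the groups overlap for the other 9 genes.

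Klf4 encodes a zinc finger factor that binds the Cebpb promoter early in adipogenesis and is also known from pluripotency, the epidermis and smooth muscle. In DMSO replicates 1 to 5 its level was 22.6, 22.5, 22.7, 23.1 and 22.7 CPM. In BPS replicates 1 to 5 it was 25.7, 26.1, 26.4, 25 and 27.2 CPM. All 5 BPS libraries were above all 5 DMSO libraries, with a gap between 23.1 and 25 CPM. The means were 22.7 ± 0.222 CPM (SD, n = 5) in DMSO and 26.1 ± 0.819 CPM (SD, n = 5) in BPS, a rise of 14.7% with a 95% interval of 9.99 to 19.7%. The log2 fold change was 0.20 (SE 0.03, adjusted p = 0.00229). These levels rested on 812 to 896 counts in DMSO libraries and 886 to 1025 counts in BPS libraries. The spread among DMSO libraries, a coefficient of variation of 0.978%, was below the 3.41% that counting alone gives at this depth, and the spread among BPS libraries, 3.14%, was near the 3.24% from counting. The mural marker sum, carried by Acta2, separated the groups in the same direction as Klf4, and its part in the Klf4 difference was not tested.

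The promoter of Klf4 is printed because this was the member that rose, beside those of 2 other Krüppel-like factor genes used for contrast below: Klf2, which rose, and Klf3, which did not pass the test. Each is the 250 bases before the gene's start in RefSeq, build GRCm38.p6, and capitals mark matches on either strand to GCGNGGGCG, the site of the early response factor EGR1, whose gene rose under BPS as given below. The windows lie at chr4:55532476-55532725 on the minus strand (Klf4), chr8:72318812-72319061 on the plus strand (Klf2) and chr5:64803271-64803520 on the plus strand (Klf3). For none of them does a transcript in GENCODE, another annotation, start at the exact base after the window, so positions hold for the RefSeq start alone.

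Klf4: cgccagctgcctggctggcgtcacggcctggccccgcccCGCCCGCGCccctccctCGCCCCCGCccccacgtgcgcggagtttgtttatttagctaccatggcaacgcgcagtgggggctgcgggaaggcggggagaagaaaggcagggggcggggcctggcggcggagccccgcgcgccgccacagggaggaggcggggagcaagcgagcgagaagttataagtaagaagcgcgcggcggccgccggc

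Klf2: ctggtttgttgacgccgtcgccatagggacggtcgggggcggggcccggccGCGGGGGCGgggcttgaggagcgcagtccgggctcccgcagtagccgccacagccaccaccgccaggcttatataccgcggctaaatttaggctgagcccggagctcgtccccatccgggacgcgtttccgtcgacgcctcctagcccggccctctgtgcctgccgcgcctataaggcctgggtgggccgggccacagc

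Klf3: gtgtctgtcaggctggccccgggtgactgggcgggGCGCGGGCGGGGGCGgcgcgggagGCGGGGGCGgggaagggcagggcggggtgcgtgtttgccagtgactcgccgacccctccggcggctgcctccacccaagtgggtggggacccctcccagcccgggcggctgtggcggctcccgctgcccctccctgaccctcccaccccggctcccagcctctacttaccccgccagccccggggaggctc

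The Klf4 window had 2 matches, starting at positions -211 and -194 relative to the start, with a GC content of 74.0% against a median of 52.4% over all 32851 such windows of 27025 genes. Klf2 had 1 match and Klf3 had 3, of which a pair overlap each other in the longer run of capitals. Matches to this motif also overlap the GC box, GGGCGG, in all 3 windows. A match was present in 4.7% of all windows, and in 26.0% of the 3037 windows with at least 70% GC. Among the members with a window, Klf15 also had 1 match, at position -89, and did not pass the test. The windows of Klf6 and Klf13, both of which rose, held 0 matches. A match is a description of letters and not evidence of binding.

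Cebpb and Cebpd encode the C/EBP factors that are induced first in the cascade. Cebpb varied well beyond its counting error. Its level in DMSO replicates 1 to 5 was 85.0, 97.0, 109, 106 and 102 CPM. In BPS replicates 1 to 5 it was 111, 119, 104, 98.1 and 83.6 CPM. The groups overlapped widely, and the highest and the lowest of all 10 values were both BPS libraries. The means of 99.7 ± 9.37 and 103 ± 13.5 CPM (SD, n = 5 each) gave log2 fold change 0.05 (SE 0.09, interval -0.15 to 0.24, adjusted p = 0.833). Counting error would give a coefficient of variation of 1.63%, and the libraries varied by 9.4% in DMSO and 13.1% in BPS. For Cebpb, then, differences from -9.57 to 18.2% lie within the interval. Cebpd varied less, by 4.31% in DMSO and 1.82% in BPS, where counting gives 2.37 and 2.4%. It was at 46.9 ± 2.02 CPM in DMSO (43.7, 47.2, 46.5, 49.3 and 47.7 in replicates 1 to 5) and 47.2 ± 0.861 CPM in BPS (47.0, 46.9, 47.8, 46.1 and 48.3). The BPS values all lay inside the DMSO range, and the interval of the difference ran from -3.78 to 5.47% (log2 fold change 0.01, SE 0.03, adjusted p = 0.900). The rise of Klf4 therefore stood beside no detected change of Cebpb, its known target.

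Klf5, which C/EBPβ and C/EBPδ activate and which in turn acts on Pparg, was the least abundant member. Its values were 1.09, 1.10, 1.17, 1.05 and 0.782 CPM in DMSO replicates 1 to 5 and 0.802, 0.919, 1.08, 1.04 and 1.25 CPM in BPS replicates 1 to 5. The groups overlapped, and the values came from only 28 to 46 counts per library. The log2 fold change was -0.03 (SE 0.15, adjusted p = 0.944), and the interval from -22.2 to 23.1% shows that a change of the size of Klf4's was not detectable at this depth.

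Pparg encodes the nuclear receptor PPARγ, the central regulator of fat-cell formation. Its level was 8.68, 9.08, 8.49, 8.45 and 9.08 CPM in DMSO replicates 1 to 5. In BPS replicates 1 to 5 it was 9.03, 9.02, 8.29, 8.91 and 8.39 CPM. The groups overlapped almost fully, with 2 BPS libraries below every DMSO library and 0 above. The means were 8.76 ± 0.307 and 8.73 ± 0.36 CPM (SD, n = 5 each). The log2 fold change was -0.005 (SE 0.05, adjusted p = 0.979), with an interval from -7.21 to 7.06%. Over these 303 to 360 counts per library the spread in either group was below the counting error.

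Cebpa, which sustains PPARγ and is needed for white fat, was at 23.7, 24.9, 26.9, 27.1 and 24.4 CPM in DMSO replicates 1 to 5 and at 24.9, 26.6, 26.7, 26.9 and 26.1 CPM in BPS replicates 1 to 5. Every BPS value fell within the DMSO range. Means of 25.4 ± 1.53 and 26.2 ± 0.8 CPM (SD, n = 5 each) differed little (log2 fold change 0.05, SE 0.04, interval -0.04 to 0.14, adjusted p = 0.617). Klf15, a glucocorticoid-responsive factor that acts on Pparg and on the glucose transporter gene Slc2a4, was at 3.65, 4.14, 5.32, 4.90 and 3.49 CPM in DMSO and at 4.01, 4.51, 5.01, 4.68 and 4.73 CPM in BPS. The BPS values again lay inside the DMSO range, which was wide, with a coefficient of variation of 18.4% where counting gives 7.82%. The log2 fold change of Klf15 was 0.09 (SE 0.12, adjusted p = 0.753), with an interval from -11 to 27.5%.

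The commitment factors showed the same absence of a detected change. Ebf1 was at 63.8, 63.4, 71.2, 63.0 and 63.1 CPM in DMSO replicates 1 to 5 and at 69.3, 59.0, 66.6, 67.8 and 70.1 CPM in BPS replicates 1 to 5. DMSO replicate 3 stood above the other 4 DMSO libraries and above every BPS library, and BPS replicate 2 was below every DMSO library. The groups thus overlapped, also apart from DMSO replicate 3. The log2 fold change of Ebf1 was 0.04 (SE 0.05, adjusted p = 0.761; interval -0.07 to 0.14). Ebf2 was at 64.1, 58.4, 57.2, 60.5 and 57.9 CPM in DMSO and at 63.0, 56.6, 55.9, 57.8 and 56.8 CPM in BPS. In BPS, 3 of 5 libraries were below every DMSO library, while replicate 1 was near the top of the DMSO range. The log2 fold change of Ebf2 was -0.04 (SE 0.04, adjusted p = 0.672; interval -0.12 to 0.05). Zfp423, which sets the preadipocyte state by raising Pparg, was at 9.85, 10.4, 9.61, 10.4 and 9.27 CPM in DMSO and at 10.5, 9.22, 9.45, 10.5 and 9.85 CPM in BPS. Its BPS values lay on both sides of the DMSO range, and its log2 fold change was -0.002 (SE 0.05, adjusted p = 0.991; interval -0.12 to 0.12).

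**Figure D2:**
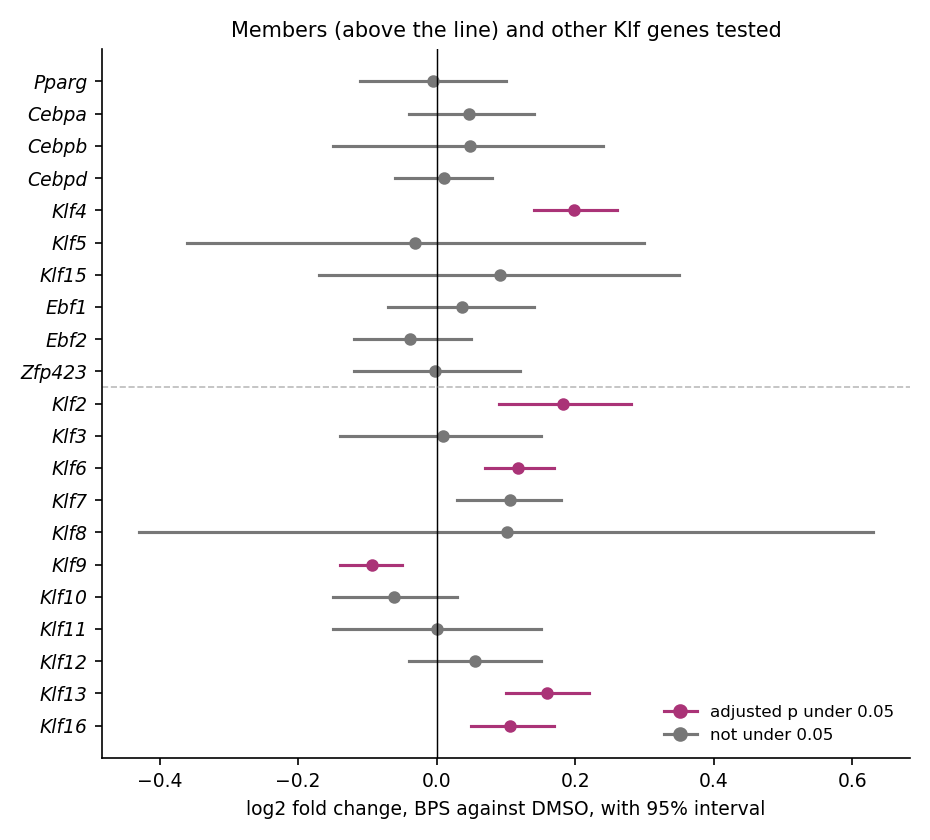
Log2 fold change of BPS against DMSO (x axis; points, with 95% intervals as bars) for the 10 members, above the dashed line, and for the 11 other Krüppel-like factor genes tested, below it. Coloured genes have an adjusted p under 0.05: Klf4 among the members, and Klf2, Klf6, Klf9, Klf13 and Klf16 among the others.

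The members differed far more from each other than between groups. Compared per transcript length, Cebpb was the highest in DMSO libraries at 66.3 ± 6.23 CPM per kilobase. Cebpd followed at 20.7, Ebf2 at 13.7, Ebf1 at 11.5, Cebpa at 9.67, Klf4 at 7.5 and Pparg at 4.38 CPM per kilobase. Zfp423 at 2.18 and Klf15 at 1.81 CPM per kilobase overlapped over the DMSO libraries, and no other neighbours in this order did. Klf5 was last at 0.31 CPM per kilobase. The order of the means was the same in BPS. The length of Zfp423 rests on transcripts with only 46.4% of its counts, so its place is uncertain. That of Cebpd was limited to its RefSeq gene length of 2260 bases, where GENCODE gives 3746. Its place, and its lack of overlap with its neighbours, depend on this choice. Within groups no library was extreme for most members: DMSO replicate 3 was the highest DMSO library for 4 of the 10, and BPS replicate 5 the highest BPS library for 4.

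Counts were also divided among transcripts, because Pparg makes 2 protein forms from different promoters. PPARγ1 is made in many cells, and PPARγ2, longer at its N-terminus, is the form typical of fat cells. Of 12 Pparg transcripts, 3 encode the first form, of 475 residues in GENCODE, and 1 encodes the second, with 505 residues. The other 8 are predicted models whose form was not read. The second form was at 0 estimated counts in all 5 DMSO libraries and in BPS replicates 1, 2 and 3, which at 3 counts allows a share of Pparg counts of up to 0.833 to 0.98%, depending on the library. It held 15.7 counts, 4.96% of Pparg counts, in BPS replicate 4 and 21.4 counts, 7.06%, in BPS replicate 5. The mean share was thus 0% in DMSO and 2.4% in BPS. An exact two-sided permutation test over the 10 libraries gave p = 0.444, which is also the smallest p that values with 8 libraries at 0 can give, so the test cannot tell the groups apart or show that they are alike. These are estimates that kallisto divides among overlapping transcripts, and the predicted models took between 3.32% (BPS replicate 4) and 77.3% (DMSO replicate 1) of the Pparg counts, so the limits cover counting error only.

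A pair of the 3 Pparg windows in RefSeq is printed to show how the start region of the second form differs from a GC-rich one upstream. They are the 250 bases before the RefSeq start, on the plus strand of GRCm38.p6. No GENCODE transcript starts at the exact base after the upstream window, chr6:115360894-115361143. Starts a few bases away were not looked up, and this window was not tied to one of the transcripts counted above. It has the GC box GGGCGG in capitals (read on either strand). The downstream window, chr6:115421816-115422065, ends where GENCODE starts the transcript of the second form, and has matches to the C/EBP-type motif TTNNGNAA in capitals.

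Pparg upstream: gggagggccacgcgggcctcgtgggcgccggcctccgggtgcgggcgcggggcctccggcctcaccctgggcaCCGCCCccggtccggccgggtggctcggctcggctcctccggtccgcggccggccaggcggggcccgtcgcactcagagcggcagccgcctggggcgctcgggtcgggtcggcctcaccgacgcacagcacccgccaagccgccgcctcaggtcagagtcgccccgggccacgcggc

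Pparg downstream: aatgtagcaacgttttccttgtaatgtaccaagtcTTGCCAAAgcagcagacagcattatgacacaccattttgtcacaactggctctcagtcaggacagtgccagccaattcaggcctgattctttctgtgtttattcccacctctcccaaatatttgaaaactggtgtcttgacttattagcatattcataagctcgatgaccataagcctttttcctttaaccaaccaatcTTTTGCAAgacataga

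The upstream window is 82.4% GC and holds 1 GC box and 0 C/EBP-type matches. The downstream window is 40.8% GC and holds 2 C/EBP-type matches, starting at positions -215 and -16. C/EBP-type matches occur in 36.8% of all windows and GC boxes in 32.7%, so neither is unusual. Among the 3037 windows with at least 70% GC the shares were 7.05 and 89.6%, so both differ with GC content. A further Pparg window, with 63.6% GC, holds 2 GC boxes and 0 C/EBP-type matches. RefSeq windows were found for 7 of the 10 members; Cebpd, Klf5 and Ebf2 had no entry.

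**Figure D3:**
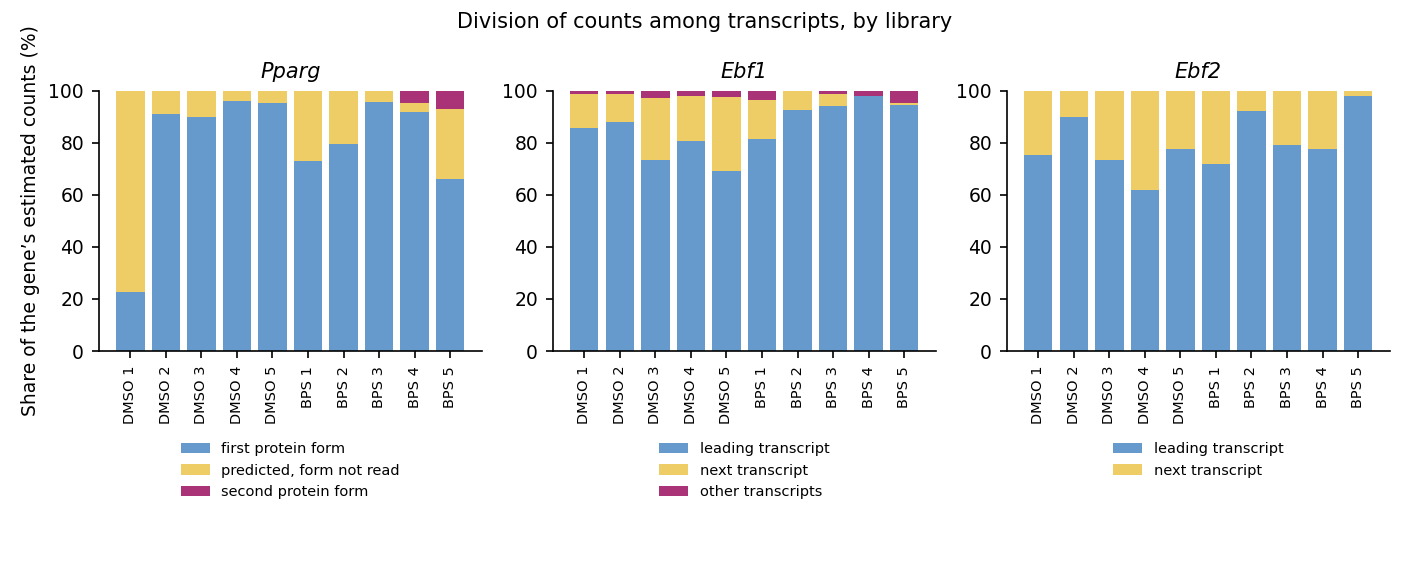
Share of each gene's estimated counts (y axis, %) assigned to its transcripts in each of the 10 libraries (x axis) for Pparg, Ebf1 and Ebf2, stacked to 100%. The second form of Pparg appears in BPS replicates 4 and 5 alone, and predicted models hold 77.3% of Pparg counts in DMSO replicate 1.

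Of 41 transcripts of the members, 24 were tested and 1 passed, the only transcript of Klf4 (log2 fold change 0.20, adjusted p = 0.0325 over all 37588 transcripts), where 0.335% of all transcripts tested passed. The call of this transcript was lost in 9 of the 10 fits that left out a library, all but the fit without BPS replicate 4, and was also lost with library size alone in place of TMM and with the replicate number as a block, while the gene-level call was lost in none of these. The leading transcript of Ebf1 held 69.0 to 88.0% of Ebf1 counts in DMSO (median 80.5%) and 81.3 to 97.8% in BPS (median 94.1%), and 4 of 5 BPS libraries were above every DMSO library. This share was singled out after its values were seen and is given with no test. In the fit over all transcripts its log2 fold change was 0.25 (SE 0.08, adjusted p = 0.441). The leading Ebf2 transcript held 61.8 to 89.7% in DMSO and 71.7 to 97.9% in BPS, with the groups overlapping. For Cebpa and Cebpb the division carries no information, since kallisto placed equal counts on 4 accessions of Cebpa and on 3 of Cebpb. For some members, single transcripts varied far more between libraries than their genes. The leading Pparg transcript had a coefficient of variation of 54.4% in DMSO and 87.0% in BPS, against 3.51 and 4.12% for the gene. That of Zfp423 had 58.1% in DMSO, against 5.02% for the gene. This did not hold for every member: that of Klf15 had 15.1% in DMSO, against 18.4% for the gene.

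The Krüppel-like factors are a family of zinc finger proteins that bind GC-rich and CACCC sequences, and its members act on adipogenesis in both directions. Of the 17 family genes listed, 14 were tested, 5 rose, 1 fell and 8 did not pass. The share that passed was 42.9%, against 4.88% of all genes tested, in a list chosen with earlier results known. The median log2 fold change of the 14 was 0.10, and 6 of them had groups that did not overlap. Over all genes tested, the groups did not overlap for 6.9%. Outside the 10 members, 11 were tested, of which 4 rose and 1 fell. Klf13 rose from 57.3 ± 1.25 to 64.0 ± 2.2 CPM (SD, n = 5 each; log2 fold change 0.16, SE 0.03, adjusted p = 0.00689). Klf6, an early response gene that has been tied to repression of Dlk1, rose from 135 ± 2.21 to 147 ± 4.62 CPM (log2 fold change 0.12, SE 0.02, adjusted p = 0.0137). Klf2, which holds back Pparg in precursors, was at 25.8, 30.0, 30.6, 27.9 and 27.4 CPM in DMSO replicates 1 to 5 and at 31.1, 31.8, 32.4, 32.6 and 33.2 CPM in BPS replicates 1 to 5. All 5 BPS libraries were above the highest DMSO library, by as little as 31.1 against 30.6 CPM (log2 fold change 0.18, SE 0.04, adjusted p = 0.0353). Klf9, which is induced by glucocorticoids and promotes adipogenesis, fell from 42.6 ± 0.753 to 39.9 ± 0.436 CPM (log2 fold change -0.09, SE 0.02, adjusted p = 0.0253). Klf16, named after its values were seen, rose from 22.6 ± 0.51 to 24.3 ± 0.494 CPM with an adjusted p of 0.0495. Klf3 averaged 21.2 ± 2.17 CPM with DMSO and 21.3 ± 1.12 CPM with BPS (log2 fold change 0.01, adjusted p = 0.966).

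The calls of Klf4, Klf6 and Klf13 held in all 20 alternative fits. That of Klf2 was lost in 10 of 20, among them the fits without DMSO replicate 1, 4 or 5 or BPS replicate 2, 3, 4 or 5 (adjusted p 0.0601 to 0.0775). That of Klf9 was lost in 6 of 19, among them the fits without DMSO replicate 2 or 4 or BPS replicate 3 or 4 (adjusted p 0.0541 to 0.0704). That of Klf16 was lost in 18 of 20, every fit that left out a library included. The number of family genes that passed went from 6 to 3 without DMSO replicate 4, without BPS replicate 3 or without BPS replicate 4, with the replicate number as a block, and with exact version matching.

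**Figure D4:**
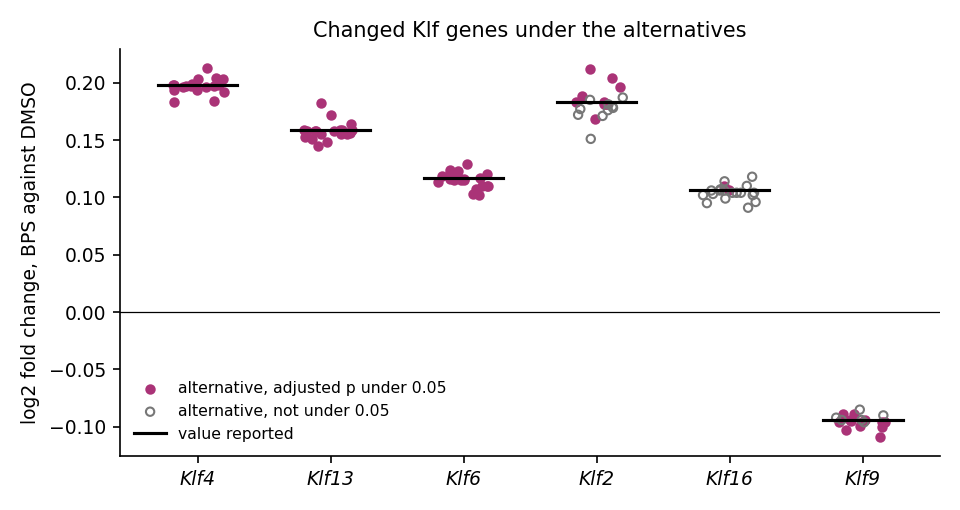
Log2 fold change of BPS against DMSO (y axis) of the 6 Krüppel-like factor genes that passed the test, under each alternative analysis; filled points have an adjusted p under 0.05, open points do not, and bars are the values reported. The points of Klf4, Klf13 and Klf6 are all filled, and Klf4 ranges from 0.18 to 0.21.

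The families of the other members showed 0 called genes: 0 of 6 tested in the C/EBP family, 0 of 6 among the EBF and ZFP423 genes, and 0 of 5 among the PPAR and RXR receptors. With 4.88% of all genes tested passing, lists this small can hold 0 calls for that reason alone. All 6 C/EBP genes had a positive log2 fold change, with a median of 0.03. Over all genes tested, 7329 log2 fold changes were positive and 7268 negative. The signs of Cebpb and Cebpd each turned in 2 of 20 alternative fits. Cebpg, a partner of other C/EBP proteins, was at 85.3 ± 2.77 and 87.6 ± 2.82 CPM (adjusted p = 0.546). Rxra, the partner with which PPARγ binds DNA, was at 87.9 ± 1.38 and 89.8 ± 0.802 CPM (adjusted p = 0.364). Zfp521, which opposes ZFP423 and EBF1, was at 65.6 ± 0.936 and 63.2 ± 2.97 CPM (adjusted p = 0.375).

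Among 28 other regulators that promote adipogenesis, 0 rose and 2 fell. The share that passed was 7.14%, against 4.88% of all genes tested. Of the 28, 20 had a negative log2 fold change, with a median of -0.04. Over all 14597 genes tested, 7268 were negative. Fosl2, an AP-1 subunit, went from 242 ± 2.94 to 230 ± 4.88 CPM (log2 fold change -0.07, SE 0.02, adjusted p = 0.0414), and Nfia, a nuclear factor I gene of the brown fat lineage, from 61.2 ± 1.96 to 56.6 ± 1.88 CPM (log2 fold change -0.11, SE 0.03, adjusted p = 0.0491), with overlapping groups. Fosl2 lost its call in 11 and Nfia in 14 of 20 alternatives, the fits without DMSO replicate 1, 2, 3, 4 or 5 or BPS replicate 1, 3 or 4 for Fosl2 and without DMSO replicate 1, 2, 3 or 4 or BPS replicate 1, 2, 4 or 5 for Nfia among them. Nr3c1, the glucocorticoid receptor gene, was at 125 ± 8.22 and 117 ± 19.4 CPM (adjusted p = 0.685). Of 30 regulators that restrain adipogenesis, 28 were tested, 1 rose (Klf2) and 0 fell. That share, 3.57%, compares with 4.88% of all genes tested. Dlk1, the preadipocyte factor that is lost as fat cells form, was at 440 ± 13.5 and 430 ± 30.2 CPM (adjusted p = 0.746).

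In fat cells, the genes that PPARγ and C/EBPα switch on can reflect the activity of these factors, which was not measured here. Of 30 listed, 22 were tested, 1 rose and 0 fell, with a median log2 fold change of 0.02. The share that passed, 4.55%, was near the 4.88% of all genes tested. The gene that rose was Fabp4, the fatty acid binding protein of fat cells and an early PPARγ target. It was at 3.51, 3.99, 3.95, 3.87 and 3.71 CPM in DMSO replicates 1 to 5 and at 4.54, 4.68, 5.15, 4.96 and 4.62 CPM in BPS replicates 1 to 5. All BPS libraries were above all DMSO libraries, by 25.7% in the fit (log2 fold change 0.33, SE 0.07, adjusted p = 0.0154). The call was lost in 1 of 19 alternatives, that with curated transcripts alone (adjusted p = 0.0505). With exact version matching Fabp4 was not among the genes tested. Fabp4 is also expressed in endothelial cells and macrophages. The sum of 6 endothelial markers was 17.6 to 23.0 CPM in DMSO and 17.0 to 22.9 CPM in BPS, and that of 7 macrophage markers was 10.8 to 17.2 and 12 to 19.6 CPM, overlapping in both cases, and their part in the Fabp4 difference was not tested. The 8 targets whose counts were too low to test included Adipoq, Plin1, Cidec and Lep, products of mature fat cells.

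**Figure D5:**
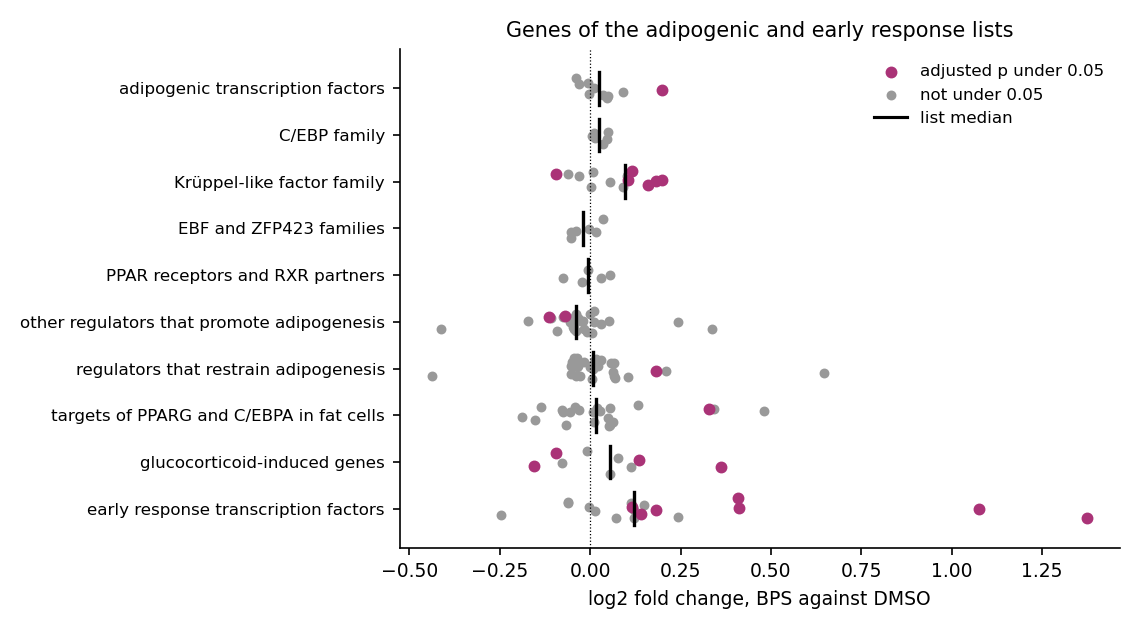
Log2 fold change of BPS against DMSO (x axis) of each tested gene in the members' list and in 9 other lists of genes, with medians as black bars and genes with an adjusted p under 0.05 coloured. The early response list lies to the right, with Fos at 1.37 and Egr1 at 1.08, while the C/EBP, EBF and PPAR lists lie near 0 with no coloured gene.

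The early response genes, transcription factor genes that respond to serum, growth factors or stress within minutes, included the largest fold changes of any called gene in these lists, those of Fos and Egr1. Of 18, all tested, 7 rose and 0 fell, with a median log2 fold change of 0.12. The share that passed was 38.9%, against 4.88% of all genes tested, in a list chosen with earlier results known. Egr1 was at 29.3, 30.0, 24.2, 25.9 and 32.6 CPM in DMSO replicates 1 to 5 and at 61.7, 68.4, 49.2, 58.8 and 61.2 CPM in BPS replicates 1 to 5, so that every BPS library was above every DMSO library (log2 fold change 1.08, SE 0.09, adjusted p = 5.69e-05). Fos rose from 2.03 ± 0.291 to 5.27 ± 1.42 CPM (log2 fold change 1.37, SE 0.17, adjusted p = 0.00104). Ier2 rose from 25.3 ± 1.16 to 33.7 ± 1.59 CPM (adjusted p = 0.000155) and Nr4a1 from 10.6 ± 0.404 to 14 ± 0.958 CPM (adjusted p = 0.00119). Klf2, Klf6 and Srf were the other 3, and Srf was named after its values were seen. Of these 7 genes, 2 are thus Krüppel-like factors, and the rise of Klf4 by 14.7% was smaller than that of Egr1, at 111%. From curated transcripts alone 4 of the early response genes rose, with Klf2, Nr4a1 (log2 fold change 0.183, adjusted p = 0.754) and Srf (0.063, adjusted p = 0.709) losing their calls. With exact version matching 4 also rose: Klf2 and Srf (0.065, adjusted p = 0.684) lost their calls, and Fos was not among the genes tested.

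Glucocorticoids are part of the usual adipogenic cocktail, and 10 genes they induce were listed. Of 9 tested, 2 rose and 2 fell, a share of 44.4%, against 4.88% of all genes tested. This list too was chosen with earlier results known. Dusp1, a phosphatase of MAP kinases that is also an early response gene, rose from 12.3 ± 0.863 to 15.8 ± 1.02 CPM (log2 fold change 0.36, SE 0.06, adjusted p = 0.0051), and Errfi1 rose from 284 ± 9.82 to 312 ± 15.5 CPM with overlapping groups (log2 fold change 0.13, SE 0.03, adjusted p = 0.0461). Klf9 fell, as above, and Mt2, a metallothionein, fell from 110 ± 3.25 to 98.4 ± 5.8 CPM, also overlapping (log2 fold change -0.16, SE 0.04, adjusted p = 0.0383). The call of Errfi1 was lost in 11 of 19 alternatives and that of Mt2 in 9 of 20, among them the fits without DMSO replicate 1, 2, 3 or 4 or BPS replicate 1, 2 or 4 for Errfi1 and without DMSO replicate 2, 3, 4 or 5 or BPS replicate 3, 4 or 5 for Mt2.

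Over the simulated libraries used to test the fit, 36% of genes seeded with a log2 change of 0.2 were called, and 52% of those with 0.3, among 14431 genes tested. The simulation changed 200 genes of any abundance, 50 of each size, where 712 genes passed in the data. Its rates need not hold for single members. For the 9 members that did not pass, the intervals above say more than the missing call. These intervals were narrowest for Cebpd, and widest for Klf5 and Klf15.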

How the data were processed

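RNA from 5 DMSO and 5 BPS libraries was made into directional libraries, per the labels' protocols. The deposited table gave estimated counts per RefSeq transcript, which the authors made with kallisto 0.42.4, per the submitters' processing notes; index, build and strand setting are not given in the sources used here. All 10 columns were matched to samples by library code. The codes run through DMSO before BPS, so any effect of that order and the treatment cannot be told apart.

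Accessions were matched without version to the RefSeq gene table of GRCm38.p6, which placed 86722 of 107384 transcripts in 32903 genes with 93.1% of the counts. The other 20662 transcripts, 6.9% of the counts, stayed out of the gene tests. Estimated counts were summed per gene and rounded. Tests used edgeR 4.0.16 (filterByExpr, TMM, glmQLFit and glmQLFTest) in R 4.3.3, adjusted over all genes or, for the transcript fit, over all transcripts, with a threshold of 0.05. The SE is the absolute log2 fold change over the square root of F. The fit was tested on simulated data. Libraries of a group differed by more than counting noise (chi-square per degree of freedom 4.134 to 8.772), so none was a copy of another.

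Promoter windows are the 250 bases before RefSeq starts. Transcript lengths came from GENCODE, limited to the RefSeq gene length. Genes named are the 10 members, up to 5 called genes per list in order of p, and Fabp4, Egr1, Fos, Nr3c1, Rxra, Dlk1, Zfp521, Cebpg, Klf2, Klf6 and Klf9 whatever they showed; Klf3 was added for its promoter. The members and lists were chosen with earlier results of these data known. The listed gene Prdm3 was read under its RefSeq symbol Mecom. Alternatives were other scaling factors and filters, DESeq2 1.42.0, limma-voom (limma 3.58.1), a replicate block, exact version matching, curated transcripts alone, and leaving out each library.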

Additional observations from a re-analysis of the deposited data

Results flagged for a closer look

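Within groups of 5 libraries, 76 sets of values were checked for a single library standing apart (gap to its nearest neighbour over 0.71 of the range). Chance flags about 1 in 20 sets, or 3.8 here, and 8 were found. Among the members, Ebf1 was at 71.2 CPM in DMSO replicate 3, with the other DMSO libraries at 63.0 to 63.8 CPM, and Ebf2 was at 63.0 CPM in BPS replicate 1, with the others at 55.9 to 57.8 CPM. Among the other genes named, Klf13 was at 60.1 CPM in BPS replicate 1 (others 64.8 to 65.5), still above every DMSO library. Cebpg was at 90.1 CPM in DMSO replicate 3 (others 83.3 to 85.1) and Dusp1 at 17.6 CPM in BPS replicate 2 (others 15.1 to 15.7). Of the cell type markers, Cd34 was at 42.5 CPM in DMSO replicate 3 (others 45.6 to 46.5), Mcam at 17.6 CPM in DMSO replicate 1 (others 20.3 to 21.2) and Cspg4 at 48.1 CPM in BPS replicate 2 (others 41.7 to 43.1).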

How the results depend on the processing

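The count of changed members was 1, Klf4, in all 20 alternative gene fits, with a log2 fold change of 0.183 to 0.213 and an adjusted p of 9.39e-05 to 0.0256. Of all genes, 712 passed in the main analysis, and 374 with the replicate block, 328 with exact version matching and 311 with curated transcripts alone; leaving out a library gave 449 (without DMSO replicate 2) to 774 (without BPS replicate 1), with 462 without BPS replicate 2 or 4 and 465 without BPS replicate 3. With library size alone, 45.9% of calls were upward, against 62.8% with TMM. The changed member transcripts went from 1 to 0 with library size alone and with the replicate block, and to between 0 and 1 when a library was left out. The difference in the share of the second Pparg form stayed between 1.24 and 3.0 percentage points when a library was left out. Directions turned only for genes that did not pass in the main analysis, with these log2 fold changes: 0.067 with curated transcripts alone and -0.018 to 0.013 without a library for Pparg; 0.003 with upper-quartile factors, 0.009 with exact version matching and -0.025 to 0.022 without a library for Zfp423; -0.004 with library size alone and -0.014 to 0.028 without a library for Cebpd; -0.009 to 0.115 without a library for Cebpb; -0.115 to 0.046 without a library for Klf5; -0.425 for Klf15 with exact version matching, which drops its main transcript; -0.006 with library size alone, -0.059 with curated transcripts alone and -0.032 to 0.058 without a library for Klf3; and -0.068 to 0.001 without a library for Dlk1 (-0.12 with curated transcripts alone). Cspg4 lost its call in 15 and Krt19 in 10 of 20 alternatives.

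Whether replicate numbers pair the libraries was not given, and the values showed little sign of it. Deviations of same-numbered DMSO and BPS libraries correlated at 0.1, 0.004, -0.067, 0.072 and -0.078, and 2 of 5 matched their own number best. This check is too weak to exclude a pairing. With the replicate block Klf4 kept its call, and the KLF genes Klf2 (adjusted p = 0.0559), Klf9 (0.0984) and Klf16 lost theirs. Depth limits Klf5 most, with 28 to 46 counts per library.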
